A study of Oryza sativa with 4 samples.

Results

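The chlorophyll branch of tetrapyrrole synthesis was followed here through 10 rice genes, chosen by locus name out of the 57995 loci of the files. They are CHLH, CHLD and CHLI for the subunits of magnesium chelatase, CHLM for the methyltransferase, CRD1 for the ring cyclase, DVR for divinyl reductase, PORA and PORB for protochlorophyllide oxidoreductases, CHLG for chlorophyll synthase and CAO1 for chlorophyllide a oxygenase. The rule that picks them uses function and no measured value, although earlier results of these data were known when it was written. The libraries were made from seedling leaves of the genotype Dongjin. All plants were germinated on wet paper and kept for 7 days at 23 °C under 16 h of light and 8 h of darkness. One group of 2 libraries came from plants irrigated with 5 mM S-nitrosocysteine (CysNO), a small thiol that carries and releases nitric oxide, and the other of 2 from control plants, for which the labels give a buffer of 1 mM HCl. The sources used here do not give the time between irrigation and harvest, no library had cysteine alone, and the 1 mM HCl is stated for the control only, so nitric oxide, the cysteine carrier and the buffer cannot be told apart. The protocol in the labels names triplicate leaf samples, and 2 libraries of each group were analysed here. The labels do not say whether libraries of one group had separate plants as their source. The p-values therefore set a group difference against a spread between libraries that could be only technical.

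Plants make chlorophyll in plastids from protoporphyrin IX, the compound from which heme is also made. Magnesium chelatase commits it to chlorophyll by inserting magnesium, and methylation, closure of a further ring and reduction of a vinyl group then lead to protochlorophyllide. Protochlorophyllide oxidoreductase reduces this in a step that needs light, chlorophyll synthase adds the phytol tail, and chlorophyllide a oxygenase makes the b form that the light-harvesting antenna binds. Several intermediates are phototoxic, and in leaves many genes of the branch are known to follow light and the daily cycle.

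The unit is FPKM, in which a gene's fragments are divided by its transcript length and by the library's mapped fragments, so levels of different genes can be set side by side. Libraries summed to between 687469 and 732401 FPKM, and read counts are unknown. Relative depth, read from the most frequent ratio at 594 loci of low expression and set to 1 in control 1, was between 0.825 and 1.08 in the others. Over the 21123 loci that were tested, limma's moderated test with Benjamini-Hochberg adjustment found 3.27% higher and 0.956% lower after CysNO, 4.23% in all, at an adjusted p under 0.05. Log2 fold changes are CysNO minus control on the log2(FPKM + 1) scale. Positions are those of the files, whose genome build is not stated.

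All 10 genes were expressed and tested, and 0 of them passed in either direction, with adjusted p-values between 0.0527 and 0.931 in limma's test. At an unadjusted p under 0.05 there were 2, PORA and CAO1, both with lower values after CysNO, where 8.39% of all tested loci were lower and 9.66% higher at that level. Both CysNO libraries lay below both controls for 4 genes, CHLH, CRD1, PORA and CAO1, and above both for 1, CHLM. Among all tested loci those arrangements held for 24.9% and 21.5%. The median log2 fold change was -0.14 over the 10 genes and -0.01 over all tested loci. In bulk leaf RNA fewer green cells and less of a transcript per cell cannot be told apart.

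**Figure D1:**
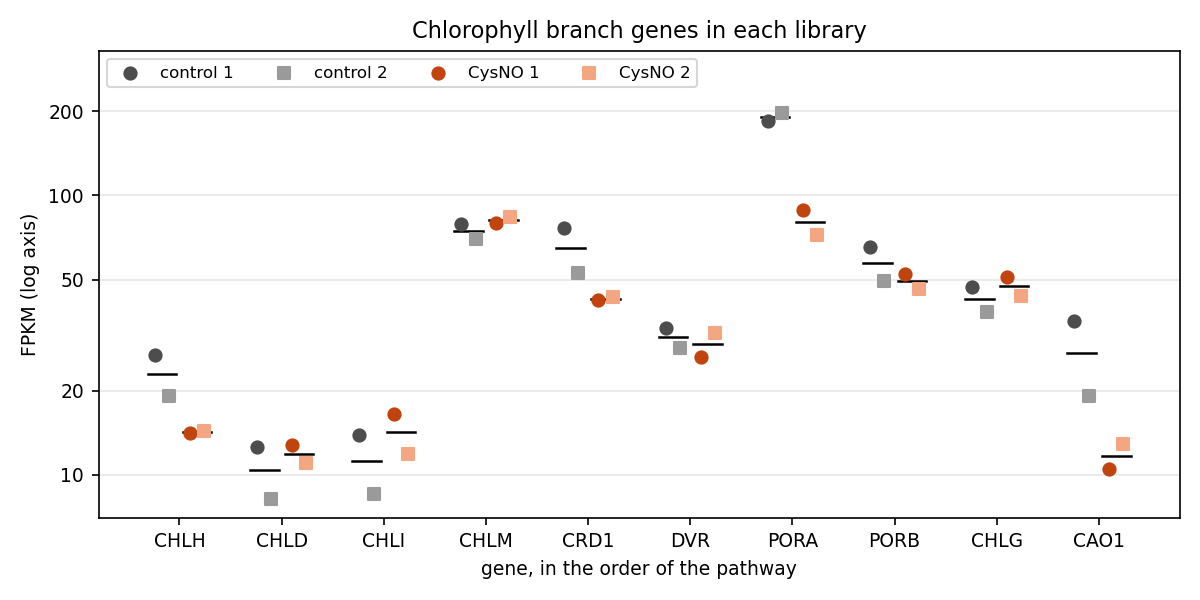
FPKM (log axis) of each of the 10 genes in the 2 control libraries (grey) and the 2 CysNO libraries (orange), in the order of the pathway, with short lines at the group means. PORA stands at 185 and 197 FPKM in the controls and at 88.4 and 72.2 after CysNO, while the values of CHLD, CHLI, DVR, PORB and CHLG overlap between the groups.

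PORA (LOC_Os04g58200, chromosome 4, bases 34477945 to 34479613) was the most abundant of the 10 genes in both controls and had the most negative log2 fold change of the 10. PORA and PORB encode 2 forms of the light-dependent enzyme, and in barley and Arabidopsis PORA is known as the form that builds up in dark-grown seedlings, while PORB persists in light. PORA read 185 FPKM in control 1, 197 in control 2, 88.4 in CysNO 1 and 72.2 in CysNO 2. The controls lay close together, and both CysNO libraries lay far below them. The group means were 191 ± 8.26 and 80.3 ± 11.5 FPKM (SD, n = 2). The log2 fold change was -1.25 ± 0.27 (SE; 95% interval -1.89 to -0.60), and 2.74% of all tested loci had a lower one. The adjusted p of 0.0527 in limma's test missed the threshold narrowly. With loci under 5 FPKM left out of the fit it was 0.0406, and with loci listed at 0 left out it was 0.0451. It stayed above the threshold with quantile normalization (0.0530), median centring (0.0802), no filter (0.142) and the replicate number as a block (0.188). Of the 11 alternatives computed for single genes, PORA passed under 2, and its log2 fold changes ran from -1.43 to -1.10.

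PORB (LOC_Os10g35370, chromosome 10, bases 18828846 to 18832578) read 65.2 and 49.3 FPKM in the controls and 52.3 and 46.3 after CysNO, so the groups overlapped. Its log2 fold change was -0.20 ± 0.27 (SE; 95% interval -0.84 to 0.43; adjusted p = 0.803 by limma), an interval that holds both no difference and a moderate one. Within a library PORA exceeded PORB 2.84-fold and 3.99-fold in the controls and 1.69-fold and 1.56-fold after CysNO. These ratios did not overlap between groups. An exact two-sided permutation test gave p = 0.333, the smallest that 2 against 2 libraries allow, so it adds nothing to that. The level of PORA itself enters the ratios, which are given as levels and not as a separate result. The 2 genes together read 250.3 and 246 FPKM in the controls and 141 and 118 after CysNO. The sources used here do not say whether reads shared by such related genes were divided, so the split between them carries that uncertainty.

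**Figure D2:**
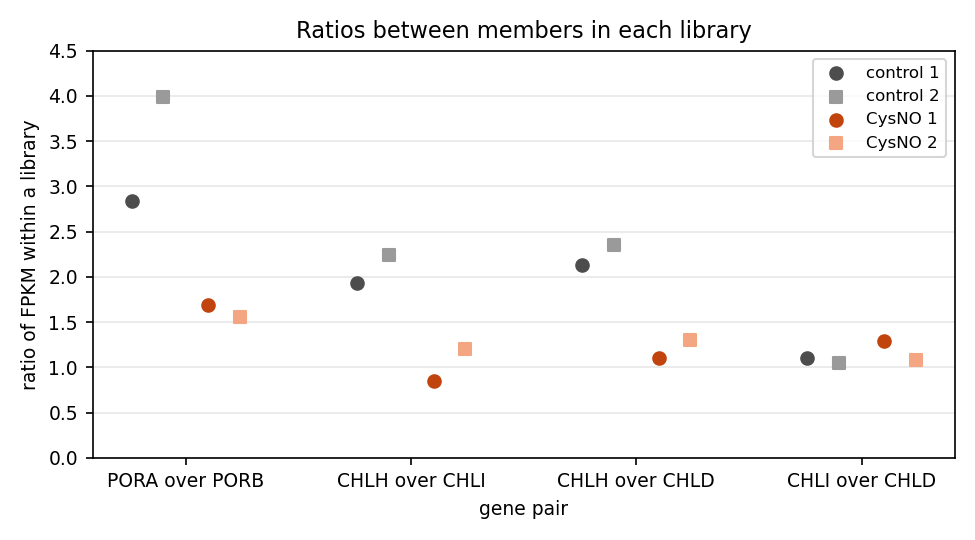
Ratio of FPKM between pairs of genes within each library (grey controls, orange CysNO; linear axis from 0). PORA over PORB, CHLH over CHLI and CHLH over CHLD are lower in both CysNO libraries than in both controls, and CHLI over CHLD stays between 1.05 and 1.29 in the 4 libraries.

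Magnesium chelatase is built from 3 subunits, CHLH, which binds the porphyrin, and CHLI and CHLD, which form the ATP-driven part that CHLH works with. Their genes all lie on chromosome 3. CHLH (LOC_Os03g20700, bases 11710887 to 11718849) read 26.8 and 19.2 FPKM in the controls and 14.1 and 14.3 after CysNO. Both treated libraries lay below both controls, with a log2 fold change of -0.64 ± 0.28 (SE; 95% interval -1.29 to 0.01; adjusted p = 0.285 by limma). CHLI (LOC_Os03g36540, bases 20246185 to 20248657) read 13.8 and 8.54 FPKM in the controls and 16.5 and 11.9 after CysNO, and CHLD (LOC_Os03g59640, bases 33948068 to 33954832) read 12.6 and 8.16, then 12.8 and 11.0. Both overlapped between groups, with log2 fold changes of 0.34 ± 0.33 and 0.21 ± 0.30 (SE; adjusted p = 0.701 and 0.822 by limma).

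The CHLH transcript stood at 1.94 and 2.25 times that of CHLI in the controls, and at 0.854 and 1.21 times after CysNO. Against CHLD it stood at 2.13 and 2.35 times in the controls and at 1.10 and 1.30 times after CysNO. The 2 sets of ratios did not overlap between groups (exact two-sided permutation test, p = 0.333 for each, the smallest possible). CHLI against CHLD ran from 1.05 to 1.29 over the 4 libraries and overlapped. Since CHLH itself did not pass the test and its level in a library enters both ratios, they are given as levels and not as separate results.

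The next 3 enzymes take magnesium protoporphyrin to protochlorophyllide. CHLM (LOC_Os06g04150, chromosome 6, bases 1732936 to 1734136), which methylates it, was second in level among the 10 genes in the controls and read 79.2 and 70.0 FPKM there and 79.4 and 83.4 after CysNO. Control 1 and CysNO 1 differed by less than the 2 controls did. Its log2 fold change was 0.13 ± 0.26 (SE; adjusted p = 0.876 by limma) and -0.04 with quantile normalization, so no direction can be given.

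CRD1 (LOC_Os01g17170, chromosome 1, bases 9873302 to 9875927), for the catalytic subunit of the cyclase that closes the fifth ring, read 76.6 and 52.8 FPKM in the controls and 42.2 and 43.2 after CysNO. Both treated libraries were lower than both controls, and control 1 was well above control 2. The log2 fold change of -0.57 ± 0.28 (SE; 95% interval -1.23 to 0.10) had an adjusted p of 0.36 in limma's test. DVR (LOC_Os03g22780, chromosome 3, bases 13154518 to 13156122), whose product reduces the vinyl group that separates divinyl from monovinyl chlorophyll, read 33.5 and 28.5 FPKM in the controls and 26.5 and 32.2 after CysNO. The groups overlapped, with a log2 fold change of -0.08 ± 0.26 (SE; adjusted p = 0.931 by limma) that turned positive without control 1 (0.03) or CysNO 1 (0.06).

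Chlorophyll synthase and chlorophyllide a oxygenase act last. CHLG (LOC_Os05g28200, chromosome 5, bases 16454551 to 16460330), whose mutation in rice can give yellow-green leaves, read 47.2 and 38.2 FPKM in the controls and 51.2 and 43.6 after CysNO. The groups overlapped, with a log2 fold change of 0.15 ± 0.26 (SE; 95% interval -0.47 to 0.77; adjusted p = 0.854 by limma).

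CAO1 (LOC_Os10g41780, chromosome 10, bases 22410672 to 22415011), the oxygenase that makes chlorophyll b in rice leaves, read 35.5 FPKM in control 1, 19.2 in control 2, 10.4 in CysNO 1 and 12.9 in CysNO 2. Both treated libraries were lower than both controls, which were themselves far apart, and CAO1 went from sixth or seventh place among the 10 levels in the controls to eighth or last after CysNO. Its group means were 27.3 ± 11.5 and 11.7 ± 1.74 FPKM (SD, n = 2), and the log2 fold change was -1.10 ± 0.34 (SE; 95% interval -1.91 to -0.30; adjusted p = 0.139 by limma). That value depended on which control was kept. Without control 2 it was -1.53 and passed (adjusted p = 0.0382), and without control 1 it was -0.68 (adjusted p = 0.489). In the files CAO1 overlaps LOC_Os10g41770 on the other strand by 1627 of its 4340 bases. That locus read 0.704 to 2.25 FPKM, and the sources used here do not say whether counting used strand. The neighbouring second oxygenase gene, CAO2 (LOC_Os10g41760), was too low to test, at 0.235 and 0.388 FPKM in the controls and 0.396 and 0.377 after CysNO.

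**Figure D3:**
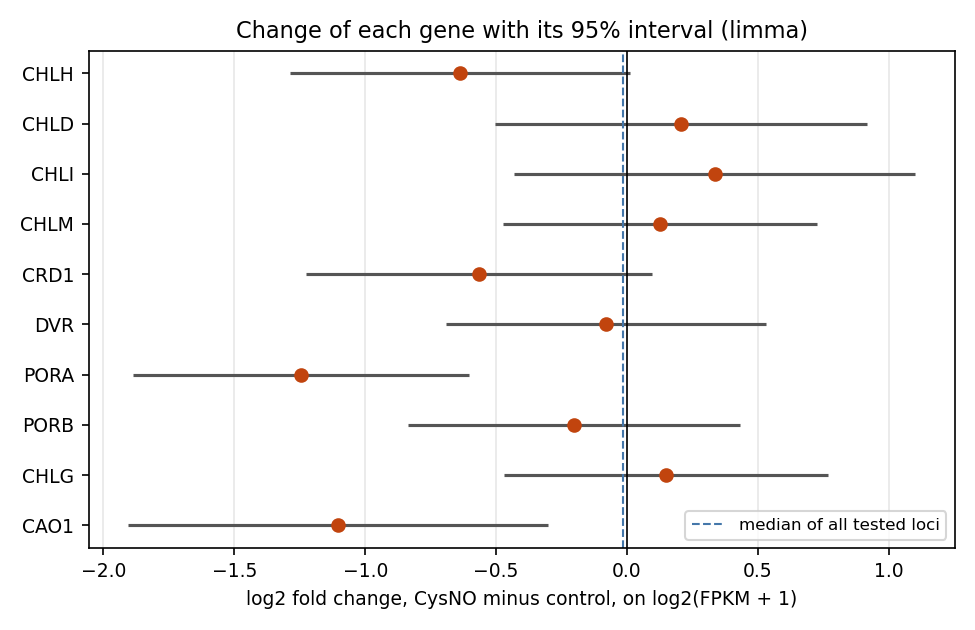
Log2 fold change of each gene, CysNO minus control on the log2(FPKM + 1) scale, with its 95% interval from limma, and the median of all tested loci as a dashed line. The unadjusted intervals of PORA and CAO1 lie below 0, and those of the other genes include 0.

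Summed over the 10 genes the branch read 575 and 491 FPKM in the controls and 394 and 371 after CysNO, with means of 533 ± 60.0 and 382 ± 16.2 (SD, n = 2). PORA made up 73.4% of the difference between those means. Without PORA the sums were 390.4 and 294 FPKM in the controls and 305 and 299 after CysNO, and the groups overlapped. PORA took 32.2% and 40.1% of the summed FPKM in the controls, and 22.5% and 19.5% after CysNO. In CysNO 2, CHLM had the highest level of the 10 genes, with PORA second.

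The order of the other levels moved most for CAO1, as given above, and for CRD1, which ranked 3 in both controls and 5 in both CysNO libraries. CHLM, CRD1, PORB and CHLG followed PORA in the controls, DVR, CAO1 and CHLH lay between 19.2 and 35.5 FPKM there, and CHLI and CHLD were lowest. Control values overlapped between CHLM and CRD1, between CRD1 and PORB and between CHLI and CHLD, so across libraries these neighbours are not separated. Within each of the 4 libraries CHLM was above CRD1 and CHLI above CHLD, while CRD1 was above PORB in the controls and below it after CysNO. Of the 10 genes 9 were higher in control 1 than in control 2, with PORA as the exception, while 5 were higher in CysNO 1 than in CysNO 2. The controls therefore differed in 1 direction over most of the branch, and the spread that each of these genes is tested against includes that difference. It was not particular to the branch. Every gene of the antenna, regulator, clock, heme and leaf marker lists described below was also higher in control 1, and no meristem or dividing cell marker was. The remaining lists were mixed. HEMA1 of the common steps, GUN4 of the other chlorophyll branch genes, SGR of breakdown and the root marker RCc3 were higher in control 2, while other genes of those lists were higher in control 1. The median log2 fold change of all tested loci was 0.05 without control 1 and -0.07 without control 2. The share of all loci higher in control 1 was not counted.

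Genes upstream and beside the branch were described by lists. Of the 10 genes of the common steps from glutamate to protoporphyrin IX, 1 rose and 0 fell (median log2 fold change 0.31). The gene was HEMA1 (LOC_Os10g35840), for glutamyl-tRNA reductase, the rate-limiting entry into tetrapyrrole synthesis, which read 19.1 and 30.7 FPKM in the controls and 92.6 and 61.5 after CysNO. Its log2 fold change was 1.60 ± 0.34 (SE; adjusted p = 0.0457 by limma), and the call was lost under 8 of 11 alternatives, among them median centring (adjusted p = 0.0951), without control 1 (0.136), without CysNO 1 (0.401) and without CysNO 2 (0.234). In the summed FPKM of the list the controls read 325 and 302 and the CysNO libraries 479 and 404. That is the opposite order to the chlorophyll branch, whose sums overlapped between groups once PORA was left out. A difference between the 2 lists was not tested.

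Of 5 tested genes listed as other chlorophyll branch genes, 0 passed. That list includes reductases of chlorophyll b and of hydroxymethyl chlorophyll a. CHLP (LOC_Os02g51080), which reduces the geranylgeranyl group to the phytol tail, was the most abundant. It read 168 and 130.2 FPKM in the controls and 102 and 111 after CysNO (log2 fold change -0.47 ± 0.28 SE, adjusted p = 0.466 by limma). GUN4, the activator that binds CHLH's substrate and product, was singled out after its values were seen. It read 18.2 and 19.1 FPKM in the controls and 10.1 and 8.95 after CysNO, with a log2 fold change of -0.90 ± 0.26 (SE; adjusted p = 0.113 by limma).

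In the heme and bilin branch 0 of 5 genes passed, and log2 fold changes were below 0 for 3 and above 0 for 2. FC1, a ferrochelatase gene singled out after its values were seen, was above 0. It read 11.0 and 10.4 FPKM in the controls and 18.9 and 21.2 after CysNO (log2 fold change 0.85 ± 0.26 SE, adjusted p = 0.131 by limma). HO1 (LOC_Os06g40080), the heme oxygenase that opens the heme ring on the way to the phytochrome chromophore, had 78.3 and 61.3 FPKM in the controls and 31.4 and 28.7 after CysNO (log2 fold change -1.18 ± 0.26, SE; adjusted p = 0.0554 by limma, 0.0425 with loci under 5 FPKM left out of the fit and 0.0425 to 0.324 over the 11 alternatives). Of 4 breakdown genes 0 passed, and SGR, whose product removes magnesium from chlorophyll a, had a log2 fold change of 0.95 (adjusted p = 0.0952 by limma), opposite in sign to the other 3. The antenna genes, whose products bind the chlorophyll, had 0 of 12 called and a median log2 fold change of -0.28. LHCB1a (LOC_Os01g41710), the most abundant of them, read 2320 and 2110 FPKM in the controls and 1280 and 1997 after CysNO (adjusted p = 0.715 by limma).

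Of 5 tested regulators of chlorophyll genes 0 passed (median log2 fold change -1.04), and 4 had both CysNO libraries below both controls, an arrangement found at 24.9% of all tested loci. The fifth, PIL15, a phytochrome-interacting factor gene named here for its opposite direction, lay above both controls (21.5% of all tested loci). Its log2 fold change was 0.73 (adjusted p = 0.272 by limma). GLK2 (LOC_Os01g13740), of the GLK pair of factors that are known to activate chlorophyll and antenna genes, read 66.6 and 44.0 FPKM in the controls and 23.8 and 26.5 after CysNO (log2 fold change -1.08 ± 0.29, SE; adjusted p = 0.0948 by limma). GLK1, singled out after its values were seen, read 40.3 and 31.3 FPKM in the controls and 16.6 and 9.89 after CysNO (adjusted p = 0.059 by limma). Of the 8 clock genes, 0 passed, with a median of -0.21. GI, a clock gene of the evening with the highest mean over the 4 libraries, read 103.7 and 57.4 FPKM in the controls and 72.2 and 82.4 after CysNO, with overlap between the groups. LHY, a clock gene of the morning singled out after its values were seen, was higher than GI in both controls, at 128 and 74.5 FPKM, and read 36.1 and 65.3 after CysNO. Its groups lay apart (log2 fold change -0.995 ± 0.39, SE; adjusted p = 0.233 by limma).

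**Figure D4:**
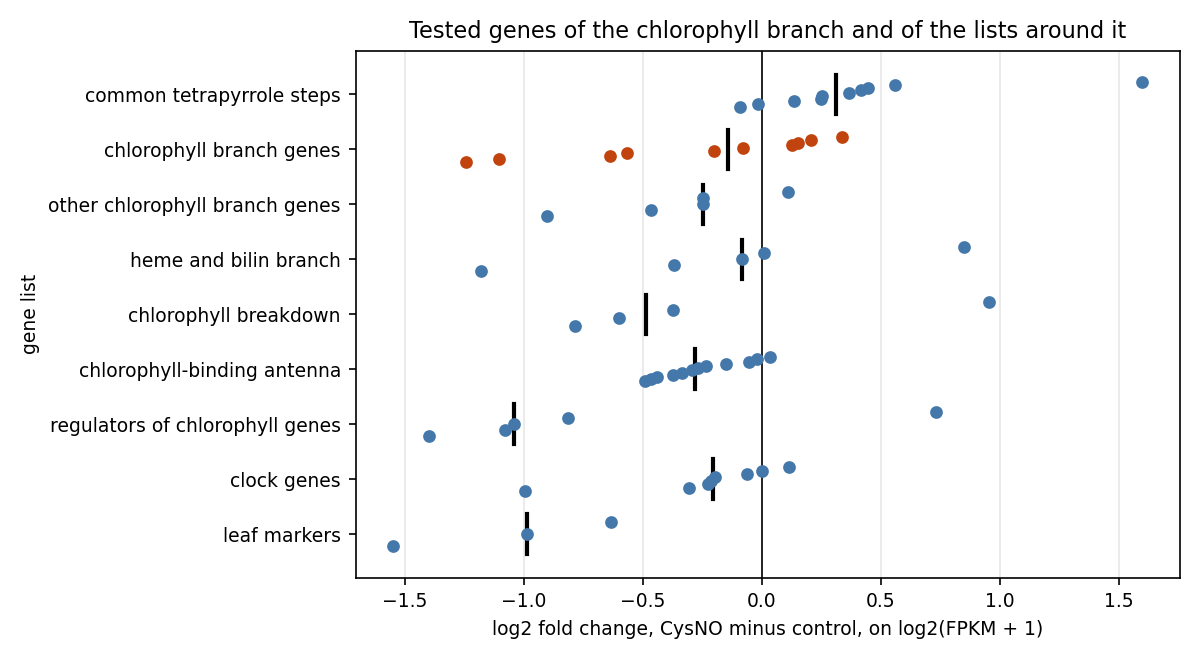
Log2 fold change of every tested gene (points, CysNO minus control on the log2(FPKM + 1) scale) in the chlorophyll branch (orange) and in 8 lists around it (blue), with a black line at each median. Of the points shown, HEMA1 in the common steps at 1.60 is the one that passed limma's test.

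Markers of cell types were set beside these values. The leaf was recognizable by its Rubisco and Rubisco activase genes, of which 0 of 3 passed, and their summed level was 1872 and 1037 FPKM in the controls and 597 and 964 after CysNO. All 3 had log2 fold changes below 0, with a median of -0.99. RBCS2 (LOC_Os12g17600), the most abundant, was at -0.63, and RCA, for Rubisco activase, at -1.55 (adjusted p = 0.0838 by limma), a more negative value than that of PORA. RCA, singled out after its values were seen, read 556 and 277 FPKM in the controls and 115 and 154 after CysNO. Both CysNO libraries lay below both controls for 2 of the 3 leaf markers, RCA among them, an arrangement found at 24.9% of all tested loci. RBCS2 overlapped, at 1122 and 676 FPKM in the controls and 430 and 731 after CysNO. Root markers summed to 11.8 and 11.6 FPKM in the controls, 9.90 in CysNO 1 and 123 in CysNO 2, where RCc3 (LOC_Os02g44310) alone read 96.4, and Lsi2 was listed at 0 in control 1 and at most 4.46 elsewhere. Markers of meristem and dividing cells summed to 45.4, 54.7, 124 and 35.1 FPKM, in the order control 1, control 2, CysNO 1 and CysNO 2, with PCNA at 119 in CysNO 1. No gene of either marker list passed. Without CysNO 1 the log2 fold change of PORA was -1.39 and without CysNO 2 it was -1.10. The part of these markers in the values of the branch was not tested.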

How the data were processed

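TruSeq libraries of leaf poly(A) RNA were sequenced as 100 bp pairs, per the labels' protocols. Per the file headers, each deposited file gives the FPKM of every locus in 1 library. Bowtie 0.12.2 and the build mm8 stand in the submitters' processing notes, and mm8 is a mouse build that cannot be that of rice loci. The sources used here do not give the build of the coordinates, the annotation release, or the counting program with its treatment of shared reads and strand. Read counts are not given either, so no count test or counting interval was used.

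The files hold no symbol for the 10 genes. Their names were checked against the RefSeq gene table for assembly ASM3414082v1, where 8 are on the chromosome of their locus, 6 with a span within 10% of the files' (not CHLI or CAO1). CHLM and CRD1, not found there, rest on general knowledge. Of all 70 listed genes, 32 had their name there on the chromosome of their locus, and 1, FC1, only on another chromosome. The others, among them HEMA1, GUN4, PIL15, RBCS2, RCc3 and every antenna gene, were not found there by name. Those names rest mostly on general knowledge. Among the genes found, spans differed most for LHY (62.8%), RCA (56.5%) and RBCS (48.1%).

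A locus was tested if 2 or more libraries had 1 FPKM or more. The two-sided test was that of limma 3.58.1 (R 4.3.3, variance modelled as a trend of the mean) on log2(FPKM + 1), and p-values were adjusted by Benjamini-Hochberg over every tested locus. The script was tested on simulated data. The model had 2 residual and 5.36 prior degrees of freedom. Ratios were compared with exact permutation tests (scipy 1.17.1). Genes named outside the 10 were, in each list, the called ones (up to 3) or otherwise the most abundant. CAO2, GUN4, FC1, PIL15, GLK1, LHY, RCA and Lsi2 are named outside that rule, with their values seen. The genes and lists were chosen with earlier results of these data known. Alternatives covered scaling, pseudocount, filter, threshold, the replicate number as a block and each library left out.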

Additional observations from a re-analysis of the deposited data

How the results depend on the processing

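Of the 10 genes, 0 were higher in every setting tried, and 0 to 2 were lower. With 1 library left out, 0 to 1 of them were lower, 0 to 816 loci were higher and 0 to 484 lower in all, and 0 to 1 genes of the other lists were higher and 0 to 3 lower. When a library is left out, its lone partner is assumed to vary like the other group. Over all loci, where 691 were higher and 202 lower, the calls were 393 and 87 with quantile normalization, 381 and 68 with median centring, 2 and 0 without a filter, 53 and 2 with the replicate number as a block and 172 and 14 at an adjusted p under 0.01. In those settings, and with a pseudocount of 0.1 FPKM, 0 genes of the other lists were higher, against 1. With a filter of 5 FPKM, and with loci listed at 0 left out (an alternative chosen after seeing the data), 1 of the 10 genes, PORA, was lower, as were 2 of the other lists. These 2 settings test fewer loci.

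Same-numbered libraries did not deviate together (correlation of control 1 with CysNO 1 across tested loci -0.186), and the labels give the number no meaning, so the block is no pairing by design. With the numbers crossed, chosen after seeing the data, 1625 loci were higher and 1206 lower, 2 of the 10 genes were lower, and 3 genes of the other lists were higher and 8 lower.

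Log2 fold changes that changed sign were near 0 or moved with 1 library. That of CHLM was -0.035 with quantile normalization, and that of GI 0.0026 with median centring. With 1 library left out, CHLD ran from -0.078 (without control 2) to 0.49, DVR from -0.22 to 0.056 (without CysNO 1), GI from -0.42 to 0.42 (without control 1) and PCNA from -0.43 (without CysNO 1) to 1.48. Their causes were not tested. The other 106 values of the 10 genes under alternatives kept their sign. With 2 libraries a group and unknown depth, differences of the size seen for CHLH and CRD1 did not pass here. Whether differences of that size could be detected was not tested.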
